A study of Sus scrofa with 28 samples.

Results

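Keratin, HOX and collagen genes were followed, as 3 gene families, through the accessible sites listed in pig liver. The members are the protein-coding RefSeq genes of the pig build Sscrofa11.1 whose symbol is KRT or COL followed by a digit, or HOXA, HOXB, HOXC or HOXD followed by a digit. This gave 115 genes (35 KRT, 36 HOX and 44 COL) of 16527 protein-coding genes with a symbol. COL6A2 lies on unplaced sequence, for which the list holds no peaks, so 114 members were measured against 16315 genes with a symbol on the same chromosomes. A gene is called listed in a library when a peak of that library has its centre inside the gene or within 1000 bp of either annotated end, and listed at an end when the centre is within 1000 bp of an end. COL4A3BP enters the rule through its symbol, but it encodes a ceramide transfer protein and no collagen. KRT7, a bile duct keratin, is annotated as a noncoding RNA in this table and is not a member. COL6A1 was not analysed here.

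ATAC-seq marks open chromatin by letting a transposase insert sequencing adapters where DNA is accessible. The libraries came from liver of female Zlotnicka White pigs, a native Polish breed, with a day tag of 180 and a slaughter weight of 100 ± 2 kg, kept on the same feed and housing. They fall into 4 groups of 7 libraries, high fat 200, low fat 200, high fat 600 and low fat 600, and all came from digested, strained and slowly frozen tissue. The labels do not say what 200 and 600 stand for, and the fat groups stand under a tag for shear force. Where titles share a number across the labels 200 and 600, the same animal was assumed. The labels neither state this nor name animals, so p-values measure the spread between these libraries. All 200 libraries carry one lane tag and all 600 libraries another, so label and lane cannot be told apart. The yield differed widely, from 205 to 17652 listed peaks in high fat 200, from 196 to 8221 in low fat 200, from 39 to 6453 in high fat 600 and from 101 to 3775 in low fat 600.

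Keratins are intermediate filament proteins that are built from a type I and a type II chain, and most are made in epidermis and hair. Hepatocytes make the simple keratins KRT8 and KRT18, while bile duct cells also make KRT7 and KRT19. HOX genes encode transcription factors that set position along the body axis, lie in 4 compact clusters and are held silent by Polycomb complexes where they are not used. Collagens form the fibrils, networks and basement membranes of the extracellular matrix, and in liver the fibrillar collagens are made mainly by stellate cells and fibroblasts. The tissue label was checked on markers. All 10 hepatocyte markers were listed, against 68.9% of all genes with a symbol, led by HPX in 12 of 28 libraries and TTR and FGG in 8 each. APOA1 and SERPINA1 were in 2 libraries each, and APOB and CPS1 were never listed at an end. None of 5 bile duct markers (KRT19, EPCAM, SOX9, CFTR, SPP1) and none of 7 macrophage markers were listed in any library, and 1 of 5 endothelial markers was (STAB2, in 1 library). Of 9 stellate cell and fibroblast markers 2 were listed, COL1A1 and PDGFRB, each in 2 libraries and never at an end, while COL1A2, COL3A1, DCN, LRAT, RELN, ACTA2 and LUM were in no library. In bulk tissue, a site open in few cells and a site weakly open in many cells cannot be told apart.

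Few keratin and HOX genes were listed at all, and collagen genes were listed inside the gene far more often than at an end. Of the 114 members 42 (36.8%) had a peak in at least 1 library, against 68.9% of all genes with a symbol. The count was 5 of 35 keratin genes (14.3%), 5 of 36 HOX genes (13.9%) and 32 of 43 COL genes (74.4%). At a gene end it was 0 of 35 keratin genes, 3 of 36 HOX genes (8.33%) and 11 of 43 COL genes (25.6%), against 52.9% of all genes with a symbol. In at least 3 of 28 libraries no keratin gene, no HOX gene and 17 COL genes (39.5%) were listed, against 44.2% of all genes. The COL share was above the background for peaks anywhere, but fell below it without high fat 200 replicates 1 and 3 (23 of 43, 53.5%, against 58.0%), a setting chosen after the data were seen. These shares are descriptions of the families and carry no test.

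Gene length bears on such counts, since a long gene can hold more peaks, and the families differ in it. The median annotated length was 7345 bp for keratin genes, 4040.5 bp for HOX genes and 139078 bp for COL genes, against 25592 bp for all genes with a symbol. Among genes of up to 10 kb, 3 of 27 keratin genes and 3 of 30 HOX genes (10.0%) were listed, against 50.7% of all 4171 such genes. Of COL genes from 10 to 50 kb 9 of 12 (75.0%) were listed, against 70.4%, and from 50 to 100 kb 1 of 4, against 79.8%. Among genes of more than 100 kb, 22 of 26 COL genes (84.6%) were listed, against 82.7% of all such genes, but at an end only 7 of the 26 (26.9%) against 52.7%. Per megabase of gene and window, the listed peaks numbered 16.1 for keratin genes, 12.0 for HOX genes and 32.1 for COL genes, and 56.3 over all genes with a symbol. Up to 10 kb keratin and HOX genes thus stood below other genes of that length, and collagen genes over 100 kb did so at the ends but not over the whole gene.

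**Figure D1:**
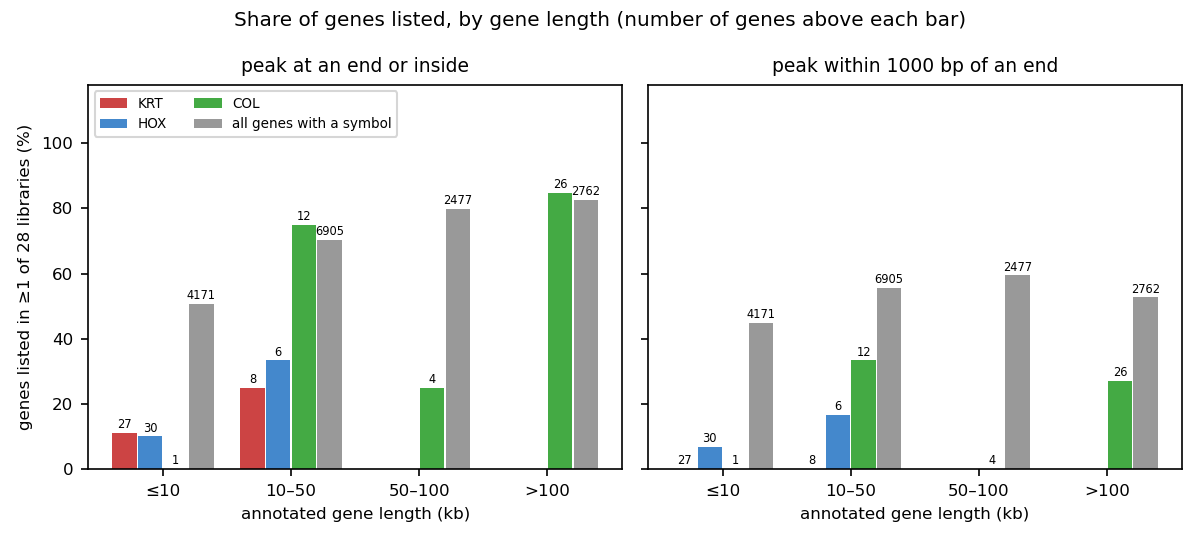
Percent of genes listed in at least 1 of 28 libraries (vertical axis) by annotated gene length in kb (horizontal axis), for peaks anywhere in the gene (left) and within 1000 bp of an end (right); bars are keratin, HOX and COL genes and all genes with a symbol, with the number of genes above each bar. Up to 10 kb, 3 of 27 keratin and 3 of 30 HOX genes are listed against 50.7% of all genes, and above 100 kb COL genes reach 84.6% anywhere and 26.9% at an end.

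The 5 listed keratin genes were each listed in a single library, high fat 200 replicate 1 or 3. Among all listed genes with a symbol, 22.2% were in a single library and 15.8% in no library but high fat 200 replicates 1 and 3. KRT80, a type II keratin of differentiating epithelia, had peaks of −log10 p 3.59 and 3.59 in replicate 1, where −log10 p is the authors' highest value within the peak. The type II hair keratin gene KRT82 had a single peak of 3.74, in replicate 3. Of the type I genes, KRT15, a basal epidermal keratin, had a peak of 4.15 and KRT34, a hair keratin, one of 3.74, both in replicate 3. KRT36, a further hair keratin, had a peak of 3.98 in replicate 1. All 6 keratin peaks lay inside the gene, at least 1026 bp from an end. The library medians were 4.32 in replicate 1 and 3.74 in replicate 3. Only the KRT15 peak exceeded the median of its library, and the KRT82 and KRT34 peaks equalled theirs.

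The keratins that liver itself uses were not listed under the rule. KRT8 and KRT18 lie next to each other on chromosome 5, at 18172423 to 18180277 and 18217686 to 18221432. The nearest peak centre lay 1316 bp outside KRT8 (chromosome 5, 18181449 to 18181737; high fat 200 replicate 3, −log10 p 4.15). For KRT18 it lay 1329.5 bp outside (18216068 to 18216645; high fat 200 replicate 1, 3.98), with a peak of replicate 3 at 1617.5 bp that overlaps it (4.15). With a window of 2500 bp both genes count as listed, as does KRT35, a hair keratin 1609 bp from a peak of replicate 1 (3.59), which raises the keratin count from 5 to 8 of 35. The counted peaks outside a gene that came nearest to the 1000 bp limit lay 814 bp from COL20A1 and 972 bp from COL22A1. The bile duct keratin KRT19 was 8121.5 bp from the nearest peak and KRT23 303198 bp.

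The keratin clusters as a whole were thinly covered. The type I cluster from KRT19 to KRT222 spans 663 kb of chromosome 12 (21115453 to 21778893) with 20 of the keratin members, and it held 4 peaks, all from high fat 200 replicates 1 and 3. That is 6.03 peaks per megabase, against 35.2 over the whole sequence and 35.0 in the 200 kb on either side of the cluster. From KRT33A on, 13 successive members up to KRT222 had no peak in the gene, and from KRT40 to KRT25 the nearest peak lay 163411 bp or more away. The type II cluster from KRT80 to KRT18 spans 739 kb of chromosome 5 (17482454 to 18221432) and held 13 peaks, 17.6 per megabase, of which 9 came from the same replicates 1 and 3. Its flanks held 85.0 per megabase. SPRYD3 and ZNF740, beside the type II cluster, were listed at an end in 6 and 5 libraries, and EIF1, a translation initiation factor beside the type I cluster, in 6. The other neighbours were in 0 to 5 libraries. JUP and HAP1, beside the type I cluster, were in 1 library each and GAST, SMARCE1, CCR7, TNS4 and IGFBP4 in none. Beside the type II cluster ACVRL1, ATG101, IGFBP6 and ITGB7 were in none, and GRASP, SOAT2, TNS2, ACVR1B and CSAD in 1 to 5.

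The 5 listed HOX genes came from 4 peaks, each of a single library. HOXC10 had a peak at an end in high fat 200 replicate 1 (−log10 p 3.98), HOXC12 at an end in replicate 3 (3.74) and HOXC6 at an end in replicate 4 (3.88). HOXD9 and HOXD10 overlap in the annotation and share 1 peak inside both genes, in replicate 1 (3.59; chromosome 15, 81918894 to 81919522). No HOXA and no HOXB gene was listed. None of the 4 peaks recurred in another library, and no 600 library and no low fat library listed any HOX gene. Of all listed genes with a symbol, 22.2% were in a single library, 33.1% only in high fat libraries and 45.6% only in 200 libraries.

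The 4 HOX clusters held 7 peaks in all, and their neighbours ranged from genes in no library to genes in 13. HOXA (chromosome 18, 45373340 to 45480306, 107 kb) held 2 peaks, both outside the member genes and their windows. The peak of high fat 200 replicate 3 was 1687 bp from HOXA9 with a −log10 p of 4.49, at percentile 91.0 of its library, and that of replicate 7 was 1797.5 bp from HOXA2 (4.12). HOXB (chromosome 12, 24784953 to 24950661, 166 kb) held 1 peak, HOXC (chromosome 5, 19151096 to 19268267, 117 kb) held 3 and HOXD (chromosome 15, 81893997 to 81990026, 96.0 kb) held 1. Per megabase this was 18.7 in HOXA, 6.03 in HOXB, 25.6 in HOXC and 10.4 in HOXD. In the 200 kb on either side it was 37.5, 35.0, 17.5 and 22.5, so HOXC, with 3 peaks, was denser than its flanks and the others were less dense. Each of these 7 peaks stood alone in a region of a single library. The flanks hold 13 named genes, of which 6 were listed. The end of SKAP2, an adaptor protein gene within 200 kb of HOXA, was listed in 13 libraries, as was that of CBX5, a heterochromatin protein gene beside HOXC. LNPK, an endoplasmic reticulum gene beside HOXD, and ATP5G1, a subunit gene of the mitochondrial ATP synthase beside HOXB, were listed at an end in 9 libraries each. UBE2Z, beside HOXB, was in 4 libraries, and SMUG1, beside HOXC, in 3 but never at an end. EVX1 and EVX2, homeobox genes that adjoin HOXA and HOXD, were in no library, nor were SKAP1, TTLL6, CALCOCO2 and SNF8 beside HOXB and MTX2 beside HOXD.

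**Figure D2:**
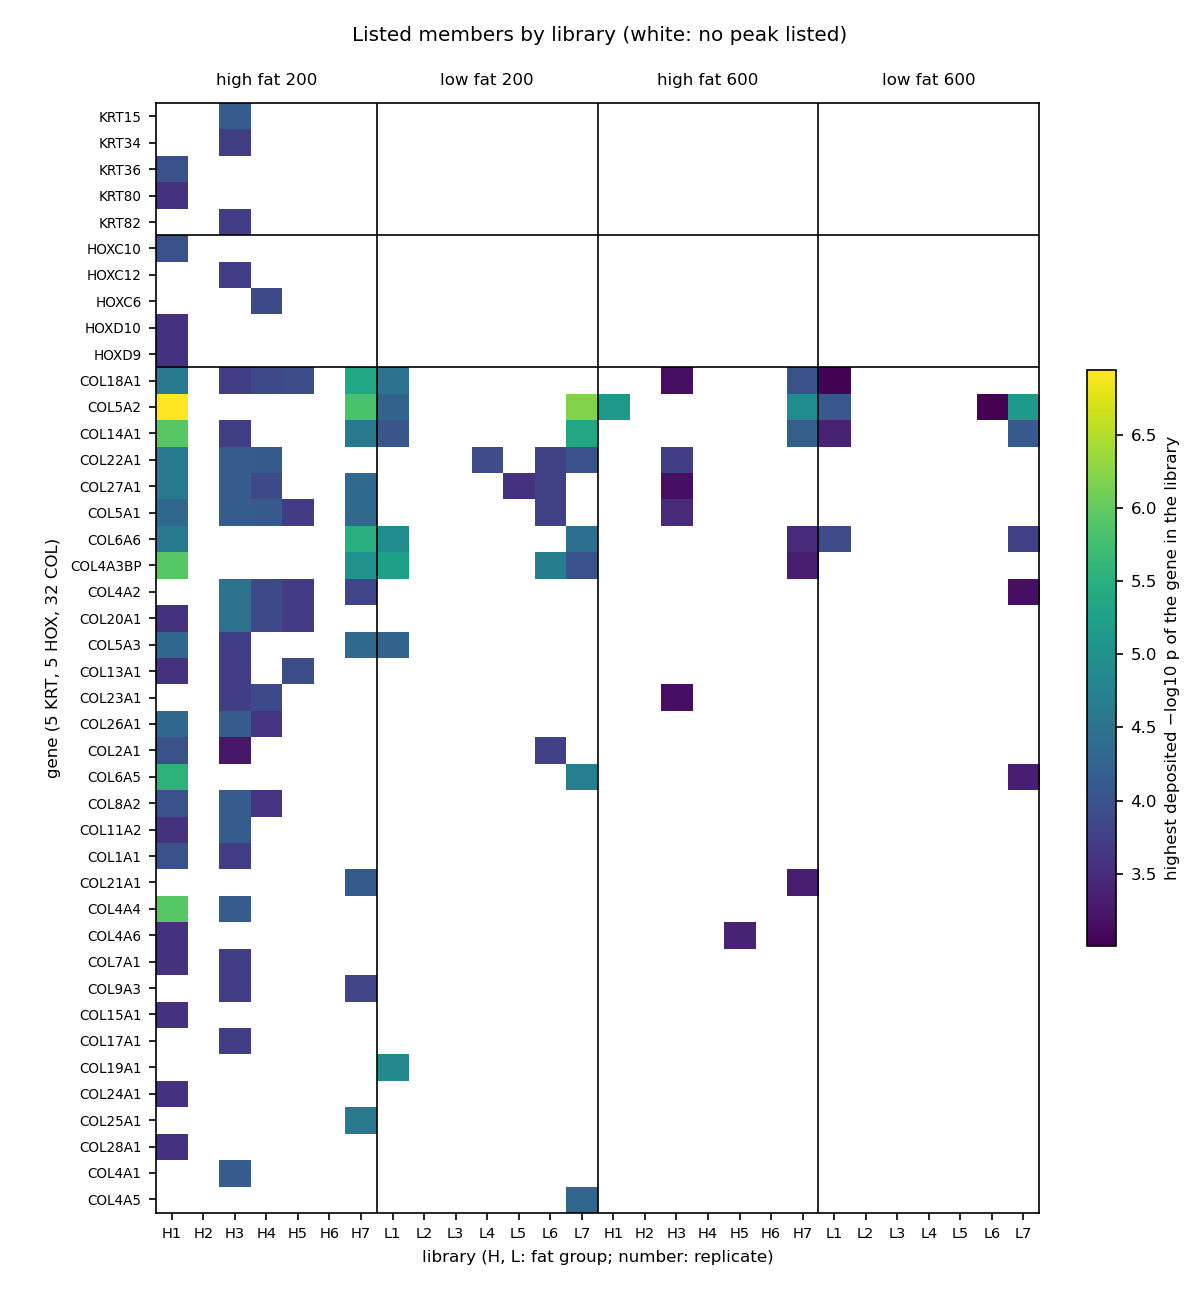
Each row is 1 of the 42 listed members and each column 1 of 28 libraries (H and L for fat group, number for replicate); colour gives the highest deposited −log10 p of the gene in that library and white means no listed peak. Keratin and HOX genes are filled in single columns of high fat 200 (replicates 1, 3 and 4), while COL5A2, COL14A1 and COL6A6 are filled in both fat groups and both labels.

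Among collagen genes only a few sites recurred between libraries. The members held 158 separate regions of overlapping peaks, of which 138 (87.3%) came from a single library, 11 from 2 libraries and 9 (5.70%) from 3 or more. Over all 29392 regions of the list, 59.8% came from a single library and 29.2% from 3 or more. The 9 recurrent member regions lay in COL5A2, COL14A1, COL6A6, COL4A3BP, COL18A1, COL6A5, COL5A3, COL27A1 and COL8A2.

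The most recurrent region was the upper end of COL5A2, the alpha 2 chain gene of type V collagen, a fibrillar collagen that sets fibril diameter. It spanned chromosome 15 from 93980367 to 93981746 and was listed in 9 libraries. In the 200 libraries −log10 p was 6.94 and 5.81 in high fat replicates 1 and 7, and 4.25 and 6.20 in low fat replicates 1 and 7. In the 600 libraries it was 5.13 and 4.92 in high fat replicates 1 and 7, and 4.08, 3.01 and 5.14 in low fat replicates 1, 6 and 7. High and low fat libraries overlapped in these values, and the 9 libraries that listed the site were among those with 1325 peaks or more. The value of high fat 200 replicate 1 stood at percentile 93.1 of that library's peaks and was the strongest peak at any member. This end is shared: WDR75, a ribosome biogenesis gene, begins at 93981054 inside the annotated COL5A2 (93611856 to 93981131), so the region is an end of both genes. No other collagen gene had an end listed in 3 or more libraries. The next by that count, COL4A3BP, is no collagen gene: its upper end (chromosome 2, 84537186 to 84538536) was listed in high fat 200 replicates 1 and 7 (5.92 and 5.00), in low fat 200 replicates 1, 6 and 7 (5.22, 4.68 and 3.99) and in high fat 600 replicate 7 (3.33).

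COL14A1 and COL6A6 each held an internal site that 7 libraries listed, and these were the same 7 for both genes. COL14A1 encodes type XIV collagen, which lies on the surface of fibrils, and its site was on chromosome 4 from 18894204 to 18895214, 30415 bp from the nearer end. Its −log10 p was 5.92 and 4.60 in high fat 200 replicates 1 and 7, 4.06 and 5.36 in low fat 200 replicates 1 and 7, 4.20 in high fat 600 replicate 7 and 3.40 and 4.13 in low fat 600 replicates 1 and 7. COL6A6, a chain gene of the beaded filament collagen VI, had its site on chromosome 13 from 1952033 to 1953272, 33203 bp from the nearer end. There high fat 200 replicate 1 had 2 peaks, of 3.98 (1952033 to 1952303) and 3.59 (1952444 to 1953007). The peak of 3.98 overlapped peaks of 600 libraries only. The other values were 5.48 in high fat 200 replicate 7, 4.91 and 4.44 in low fat 200 replicates 1 and 7, 3.48 in high fat 600 replicate 7 and 3.92 and 3.75 in low fat 600 replicates 1 and 7. All 7 are libraries with 3332 peaks or more. High and low fat libraries overlapped at both sites. COL6A5, a related chain gene on the same chromosome, had an internal site (2153657 to 2154364) in high fat 200 replicate 1 (5.55), low fat 200 replicate 7 (4.71) and low fat 600 replicate 7 (3.34).

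COL18A1, the precursor gene of endostatin and a basement membrane collagen that hepatocytes also make, was listed in 9 libraries but mostly at different places. Its 20 peaks formed 13 regions, and the most recurrent (chromosome 13, 207934492 to 207935302) was in 5 libraries. The −log10 p there was 3.98, 3.93 and 5.35 in high fat 200 replicates 1, 5 and 7, 4.48 in low fat 200 replicate 1 and 3.04 in low fat 600 replicate 1. At 256 peaks per megabase it was the most densely covered COL gene, and none of the peaks was at an annotated end.

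Apart from COL18A1, the genes with the most peaks had hardly any recurrent site. COL5A1, the partner chain gene of COL5A2, held 27 peaks in 24 regions over 7 libraries, and no region was in more than 2 of them. COL22A1, a collagen of tissue junctions, held 24 peaks in 23 regions over 7 libraries, and COL27A1, a fibrillar collagen of cartilage, 20 peaks in 17 regions over 7 libraries. The strongest peaks of these genes had −log10 p values of 4.37, 4.62 and 4.62. COL27A1 had 1 region in 3 libraries (chromosome 1, 254848928 to 254850321), and COL8A2, a network collagen gene, had 1 (chromosome 6, 92248472 to 92249098). Both came from high fat 200 replicates 1, 3 and 4. In COL27A1 the peaks of replicates 1 and 3 did not overlap each other and were joined only through that of replicate 4. COL5A3, by contrast, had its recurrent site (chromosome 2, 68862044 to 68862721) in high fat 200 replicates 1 and 7 (4.32 and 4.37) and low fat 200 replicate 1 (4.25).

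**Figure D3:**
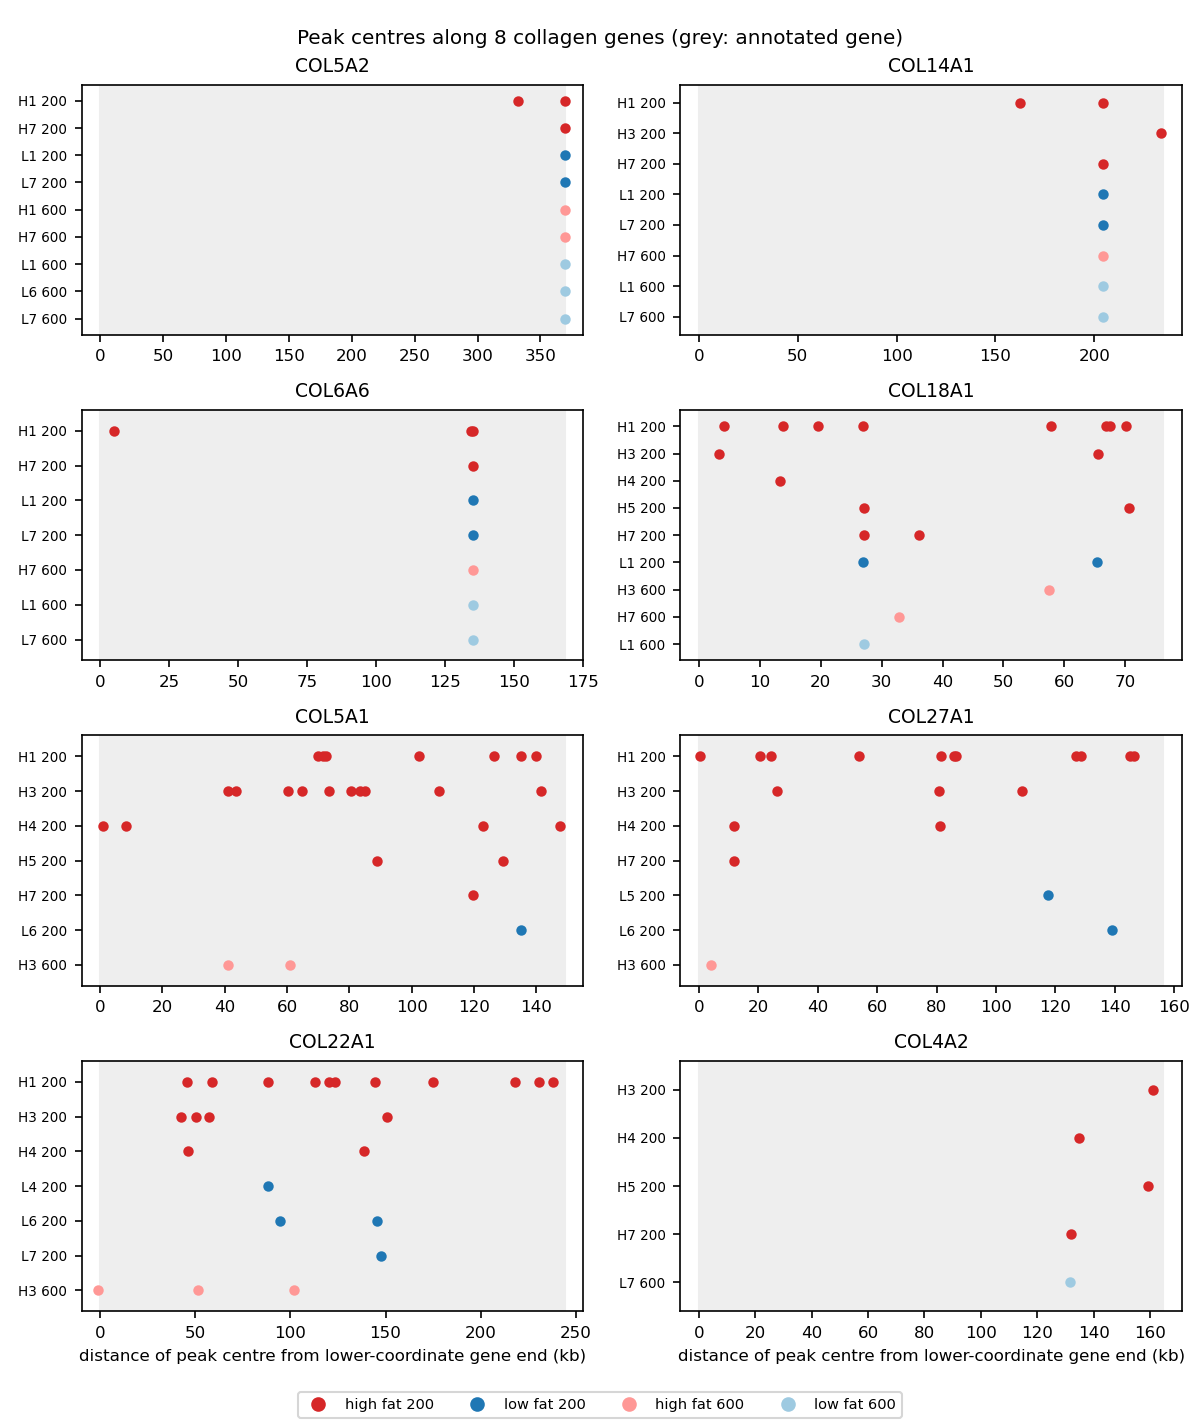
Peak centres along 8 collagen genes, as distance in kb from the lower-coordinate end of the annotated gene (horizontal axis), with a line for each library that listed the gene and colour for the group. In COL5A2, COL14A1 and COL6A6 the centres stack at 1 place over 7 to 9 libraries, while in COL5A1, COL27A1 and COL22A1 they are spread along the gene.

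The collagen classes are small, were grouped with results known and carry no test. Over all genes with a symbol 68.9% were listed and 52.9% at an end, and of those over 100 kb 82.7% were listed. By class, fibrillar collagens were listed in 8 of 11 genes, 4 of them at an end, and basement membrane type IV collagens in 5 of 6. COL4A2 was listed in 5 libraries, high fat 200 replicates 3, 4, 5 and 7 and low fat 600 replicate 7, while COL4A1 had peaks in 1 library and COL4A3 none. Fibril-associated collagens were listed in 6 of 10, beaded filament collagens in 2 of 3, transmembrane collagens in 4 of 4 and multiplexins, the class of COL15A1 and COL18A1, in 2 of 2. The anchoring fibril gene COL7A1 was listed in 2 libraries, and COL8A1 and COL10A1 in none. Of the main fibrillar genes of scar tissue, COL1A1 had 3 peaks inside the gene, in high fat 200 replicate 1 (3.98 and 3.98) and replicate 3 (3.74). COL1A2, whose nearest peak was 66522.5 bp away, and COL3A1, at 348548 bp, had none. COL15A1 was in 1 library, and COL6A3, COL9A1, COL9A2, COL11A1, COL12A1 and COL16A1 were in none. The other listed COL genes (COL2A1, COL4A4, COL4A5, COL4A6, COL9A3, COL11A2, COL13A1, COL17A1, COL19A1, COL20A1, COL21A1, COL23A1, COL24A1, COL25A1, COL26A1 and COL28A1) were in 1 to 4 libraries.

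Genes that work with these families were listed in 74.1% to 89.7% of each list, against 68.9% of all genes with a symbol, without matching for length or a test. Of 27 collagen-modifying enzymes and chaperones 20 (74.1%) were listed, 15 of them at an end (55.6%). PLOD2, a collagen lysyl hydroxylase, was at an end in 17 libraries, P4HA1, the catalytic subunit gene of prolyl 4-hydroxylase, and PPIB, a prolyl isomerase, in 11 each. SERPINH1, the collagen chaperone, was in 1 library and LOX, which crosslinks collagen, in none. Of 22 other intermediate filament and keratin-anchoring genes 17 (77.3%) were listed and 12 (54.5%) were at an end. They were led by the lamin gene LMNB1 in 12 libraries and the desmosome genes PKP2 in 10 and DSG2 in 9, while VIM was in 1 and DES in none. Of 9 genes for HOX cofactors 7 (77.8%) were listed, PKNOX2 in 16 libraries and MEIS1 in 8, but their median length was 140832 bp and genes over 100 kb were listed at 82.7%. The Polycomb list held 29 genes, those of the complexes and the opposing demethylase genes KDM6A and KDM6B. Of these 26 (89.7%) were listed and 21 (72.4%) were at an end, led by KDM6A in 14 libraries and EZH2 in 12. Against 52.9% of all genes with a symbol, the end shares of these lists were 54.5% to 72.4%, and those of the 3 families 0% to 25.6%.

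The libraries differed in how much of their list fell at members. The genes and their windows make up 0.285% of the sequence. Genes in general were denser in peaks, with 56.3 per megabase of gene and window, against 35.2 over the whole sequence. The share of sequence is therefore not the share of genes in general, which was not computed for each library. At members lay 0.419% of the peaks of high fat 200 replicate 1 (74 peaks; exact binomial 95% interval 0.329% to 0.526%), 0.747% in replicate 3 (47 peaks; 0.550% to 0.993%), 0.932% in replicate 4 (15 peaks; 0.522% to 1.53%) and 0.704% in replicate 5 (8 peaks; 0.304% to 1.38%). High fat 200 replicate 7, with 11943 peaks, had 14 peaks at members, or 0.117% (0.0641% to 0.197%). Among low fat 200 libraries with a member peak the share was 0.0405% to 0.162%. The intervals cover counting error only, and peaks of a library are not independent of each other. The intervals of replicates 1, 3, 4 and 5 lay above the share of sequence. Those of high fat 200 replicate 7 and low fat 200 replicates 1, 4 and 7 lay below it, while those of low fat 200 replicate 5 (1 peak; 0.00410% to 0.900%) and replicate 6 (6 peaks; 0.0523% to 0.310%) covered it.

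Of the 200 libraries, the same 4 high fat libraries had the highest shares of sites of their own. Peaks in single-library regions made up 39.7%, 68.3%, 35.5% and 30.5% of the lists of replicates 1, 3, 4 and 5, against 18.9% in replicate 7 and 10.3% and 10.2% in replicates 2 and 6. In low fat 200 replicates 1 to 7 they made up 10.7%, 15.3%, 2.05%, 3.85%, 24%, 7.30% and 4.18%. The highest of these, replicate 5, has 617 peaks and came nearest to the 4 high fat libraries. Of the member peaks, 60 of 74, 41 of 47, 10 of 15 and 7 of 8 in these libraries were in single-library regions. In replicate 7 it was 5 of 14. The part of this difference between libraries in the results on members was not tested beyond leaving libraries out. In the 600 libraries, high fat replicate 3 again had 0.599% of its peaks at members (8 of 1336) with 57.2% in single-library regions, whereas high fat replicate 1 had 0.0224% (1 of 4455). High fat 600 replicate 5 had 1 member peak of 142 and replicate 4 had 0 of 190, for which 3 peaks would be 1.58% and the exact binomial upper limit is 1.92%.

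**Figure D4:**
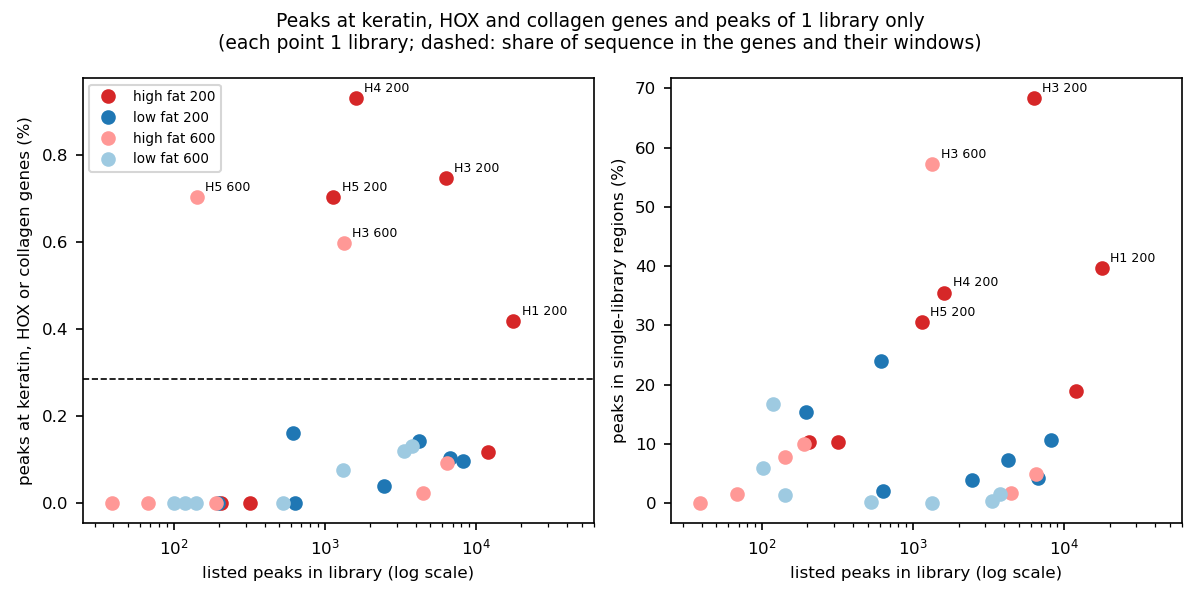
Each point is 1 library, with its listed peaks on a log axis against the percent of its peaks at keratin, HOX or collagen genes (left, dashed line at 0.285%, the share of sequence) and the percent in regions of no other library (right). High fat 200 replicates 1, 3, 4 and 5 and high fat 600 replicates 3 and 5 lie above the line, and all other libraries below it.

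The strength of member peaks overlapped between recurrent and single sites. Member peaks in single-library regions had a median −log10 p of 3.80 (138 peaks, 3.17 to 5.92), and 23 of them were above the median of their own library. In regions of 2 libraries the median was 3.76 (22 peaks, 3.16 to 4.37), with 2 above. In regions of 3 or more libraries it was 4.25 (47 peaks, 3.01 to 6.94), with 23 above. Over all 207 member peaks 48 were above their library's median, and the median percentile within the library was 30.4. Tied values bear on both numbers. In high fat 200 replicate 3, with 47 of the peaks, the library median of 3.74 itself stood at percentile 30.4. Peaks equal to the median were not counted as above it. These values describe the sites and carry no test.

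The comparison of fat groups, the question in the series title, gave no difference for any member. In the 200 libraries 15 members were listed in at least 3 libraries and tested, among 6557 genes, by Fisher's exact test with Benjamini-Hochberg adjustment over all of them. None passed an adjusted p of 0.05, and neither did any gene of the whole table (0% called; 3 genes, or 0.0458%, at an unadjusted p under 0.05). The smallest unadjusted p of a member was 0.0699 (Fisher's exact test, adjusted p = 1). It was that of COL4A2 and COL20A1, each in 4 of 7 high fat and 0 of 7 low fat libraries. COL5A1 and COL18A1 were each in 5 of 7 high and 1 of 7 low fat libraries (Fisher's exact p = 0.103, adjusted p = 1). COL5A2 and COL6A6 were in 2 of 7 high and 2 of 7 low fat libraries each. No p below 0.000583 is possible with 7 against 7 libraries, so a single gene could not have passed.

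In count, 11 of the 15 tested members were in more high fat than low fat libraries, 1 (COL4A3BP) in fewer and 3 in equal numbers, while of all 6557 genes 35.3% were in more high fat and 38.6% in more low fat libraries. The minimum of 3 libraries bears on this count. COL4A2, COL20A1, COL26A1, COL8A2 and COL13A1 were in no low fat 200 library and met it through high fat libraries alone. The count carries no test. The majority changed with the libraries included. Without high fat 200 replicates 1 and 3, 9 members could be tested, of which 4 were in a larger share of high fat and 5 in a larger share of low fat libraries. COL27A1, COL5A1, COL4A2 and COL18A1 were the 4. Over all genes tested in that setting, 5 against 7 libraries, 8.44% were in a larger share of high fat and 91.5% in a larger share of low fat libraries. Without replicates 4 and 5 as well, 3 against 7 libraries, 4 of 6 members were in a larger share of high fat libraries (COL27A1, COL14A1, COL6A6 and COL5A2) and 2 of low fat libraries, against 34.1% and 65.9% of all genes tested. Of the 42 listed members 28 were listed only in high fat libraries, 2 (COL19A1 and COL4A5) in low fat libraries alone and 12 in libraries of both fat groups. Over all listed genes with a symbol 33.1% were listed only in high fat and 2.97% only in low fat libraries. Leaving out high fat 200 replicates 1 and 3 reduced the 28 of 42 to 10 of 24 (41.7%, against 1939 of 9459 listed genes), with 4 in low fat libraries only (16.7%, against 9.47%). Leaving out replicates 4 and 5 as well gave 5 of 19 (26.3%, against 18.8% of all listed genes) and 4 of 19 (21.1%, against 10.5%). All 10 listed keratin and HOX genes were among the 28, and none of them was left in that last setting.

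In the 600 libraries 13 members were listed, all COL genes, of which 7 were in high fat only, 2 in low fat only and 4 in both (53.8%, 15.4% and 30.8%). Of the 6116 genes listed in these libraries 36.9% were in high fat only, 3.47% in low fat only and 59.6% in both. The 4 that could be tested, COL14A1, COL6A6, COL18A1 and COL5A2, had Fisher's exact p = 1 (adjusted p = 1), against 0% called of 3134 genes and 0 at an unadjusted p under 0.05. COL5A2 was in 2 of 7 high and 3 of 7 low fat libraries and COL18A1 in 2 and 1. With each assumed animal counted once over both labels, 15 members were tested among 6854 genes. None passed (0% called; 4 genes, or 0.0584%, at an unadjusted p under 0.05), and the smallest p was 0.0699 for COL20A1 (Fisher's exact test, adjusted p = 1), in 4 of 7 high and 0 of 7 low fat animals. COL4A2 was in 4 and 1, COL5A2 in 2 and 3, and COL18A1 in 5 and 1.

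The 200 libraries listed more members than the 600 libraries, as they did for genes in general. No member was in 600 libraries only, 29 of 42 were in 200 libraries only and 13 in both. Of all listed genes with a symbol 45.6% were in 200 libraries only and 1.66% in 600 libraries only. Over 14 against 14 libraries, without the assumed pairing by title number, 17 members were tested among 7207 genes. Of these members 16 were in more 200 libraries, as were 86.4% of all genes tested. COL5A2 was the exception, in 5 of 14 of the 600 and 4 of 14 of the 200 libraries (Fisher's exact p = 1, adjusted p = 1). None of the 17 passed, and 0% of all genes were called, with 376 (5.22%) at an unadjusted p under 0.05 by the same test and no member among them. The smallest member p was 0.0768 (Fisher's exact test, adjusted p = 0.731), for COL5A1, COL22A1 and COL27A1, each in 1 of 14 of the 600 and 6 of 14 of the 200 libraries.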

How the data were processed

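The members and lists were chosen with earlier results of these data known. Per the submitters' processing notes, FastQC, BWA, SAMtools, Picard and Genrich were used with Sscrofa11.1; their roles and versions are not given in the sources used here. Deposited was a peak list for each library (84192 peaks, 19 chromosomes). Per the file headers it holds positions, a score, a signal value and a p-value column. The deposited score was 800 to 1000 and the deposited signal, the peak area, at least 400 with no stated normalization. The deposited p-value column reached 7881 and was read as −log10 p. Depth is unknown. Peak numbers have gaps, so peaks had been removed by a rule not given here, and a gene without a listed peak is not shown to be closed.

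Gene positions came from RefSeq (Sscrofa11.1), without strand, exons or sequences; sequences and the planned motif counts are not used here. Symbols of the form LOC with a number were not counted as symbols. Peaks overlapping by at least 1 bp were chained into regions. Percentiles rank −log10 p within a library, with tied values at their average rank. Genes listed in at least 3 libraries of a comparison were tested by two-sided Fisher's exact test on library counts, adjusted over all tested genes at 0.05; the code was tested on simulated data. Named were members past a threshold (none), those in 3 or more libraries, the others listed, and fixed genes of liver interest. The collagen classes were grouped with results known. Alternatives were other windows, ends only, any overlap, no minimum number of libraries, stronger peaks, all protein-coding genes, autosomes, a replicate block and each library left out. Python 3.11.15 was used with scipy 1.17.1, pandas 2.3.3, matplotlib 3.10.9 and numpy 2.4.6.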

Additional observations from a re-analysis of the deposited data

How the results depend on the processing

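The difference between the share of members listed and that of all genes with a symbol was −32.0 percentage points for all members, −54.6 for keratin, −55.0 for HOX and 5.57 for COL genes. Leaving out each library in turn gave −34.2 to −30.4, −60.1 to −52.1, −57.4 to −52.5 and 3.52 to 6.05 points. The sign held in every alternative run for all members, keratin and HOX genes. For COL genes it turned with gene ends only (−27.3), at least 3 libraries (−4.64), peaks above the median strength of their label (−11.4) and, both chosen after the data were seen, without high fat 200 replicates 1 and 3 (−4.49) and without replicates 1, 3, 4 and 5 (−12.6). Without replicate 3 alone the keratin count fell from 5 to 2 of 35, and without replicate 1 alone the HOX count fell from 5 to 2 of 36.

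No gene was called in any fat comparison under any alternative, each library left out included (0 to 0). With 7 libraries or fewer on each side, a single gene could not have passed by Fisher's exact test. These runs therefore do not measure how stable the result is. For 600 against 200, 3 genes, none of them a member, were called with a window of 5000 bp and 0 in each of the others (leave-one-out 0 to 0). With the replicate block 0 genes were called in each of the 4 comparisons. The number pairs libraries only by assumption: over genes, deviations from group means correlated above 0.1 in 13 of 14 pairs of a 200 and a 600 library, and 3 of 14 of the 600 libraries matched best with their own number. Depth is unknown, and the 13 libraries with under 1000 peaks could show few members.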
